A study of Mus musculus with 3 samples.

Results

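The library described here came from uninduced NB490 cells, a mouse pancreatic cancer line, and shows which genes the line was transcribing before doxycycline was added. It is 1 of the 3 libraries of the study, chosen by its label as the uninduced sample (0 h of doxycycline). The other libraries, both from cells given doxycycline, are not analysed here. The cells carried an inducible shRNA against PDX1, kept by puromycin selection, and grew in DMEM with 10% serum. Bromouridine was given at 2 mM for 30 min in conditioned medium. With 1 library there is no replicate, so no test was made, and each interval below covers counting error alone. The uninduced cells already carry the shRNA construct, and a parental line without it was not analysed here.

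Bru-seq follows RNA as it is made. Cells build bromouridine into new transcripts, an antibody pulls these out of the total RNA, and reads fall over introns as well as exons because much of the captured RNA has not yet been spliced. The reads therefore follow the path of RNA polymerase along a gene rather than the store of finished mRNA. Pancreatic ductal adenocarcinoma has gland-like features of duct cells, although acinar cells, which make digestive enzymes, can also give rise to it in mice, and many cell lines derived from it carry mesenchymal features beside epithelial ones. PDX1 is needed to form the pancreas in the embryo and is later kept mainly in insulin-producing beta cells.

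Reads were deposited per gene model, with introns and exons together, and as RPKM (reads per kilobase of model scaled to the reads of the library). The total behind the RPKM values was 51006774 reads, of which gene models held 79.3%. Of 22658 models, 21775 were ranked, after those with a repeated symbol, those spanning over 3 Mb and those shorter than 300 bp were set aside. A model at or over 0.5 RPKM is called transcribed here, a model from 0.05 up to 0.5 RPKM low, and a model under 0.05 RPKM near zero. By these limits 7981 models (36.7%) were transcribed, 3754 were low and 10040 (46.1%) were near zero, among them 5785 with no read. The transcribed models held 94.8% of the reads and had a median of 1.63 RPKM, against 0.111 RPKM over all ranked models. The limit of 0.5 RPKM falls where levels are dense, with Irgq just inside at 0.5004 RPKM and Tmem115 just outside at 0.4993 RPKM, so the classes are ranges and not natural groups.

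For 1192 ranked models (5.47%) the deposited length was under 90% of the distance from start to end. Such models are called part-length below. Their reads over the whole distance give lower values than their RPKM, and this second value is printed for those described below. In these bulk cells, fewer transcribing cells and less RNA per cell cannot be told apart.

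The 5 genes taken as marks of the line were all transcribed, and Spp1 and Ankrd1 stood among the highest of all models. Spp1 encodes osteopontin, a secreted matrix protein made by duct cells, and lies on chromosome 5 from 104864130 to 104870072 on the plus strand, in the coordinates of the deposited files. Its model was at 98.6 RPKM (95% Poisson interval 97.5 to 99.7), which is rank 7 of 21775. Ankrd1, a muscle ankyrin-repeat protein and a widely used target of the YAP and TAZ coactivators (chromosome 19, 36186455 to 36194334, minus strand), was at 92.0 RPKM (90.0 to 94.0) and rank 8. Its model is part-length, 1765 of 7880 bp, and its reads over the whole distance gave 20.6 RPKM and rank 86. The high place of Ankrd1 thus depends on which length is used, while that of Spp1 does not.

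Vim, the intermediate filament protein of mesenchymal cells (chromosome 2, 13495938 to 13504453, plus strand), was at 34.6 RPKM (34.1 to 35.2) and rank 35. Krt18, a keratin of simple epithelia (chromosome 15, 101858647 to 101862457, plus strand), was at 14.2 RPKM (13.7 to 14.8) and rank 182. Myc, the growth-promoting transcription factor (chromosome 15, 61816896 to 61821916, plus strand), was at 7.54 RPKM (7.21 to 7.88) and rank 494. Vim was higher per length than Krt18, and both were above the median of transcribed models.

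Promoter sequences from RefSeq (GRCm38.p6, 250 bases ahead of the annotated start, 5′ to 3′ on the gene's strand) are shown for 4 of these markers, to set beside 2 silent genes of other lineages. The first 4 belong to transcribed genes; Ptf1a, an acinar factor, and Krt5, a keratin of basal cells, were near zero. Capitals mark every match on either strand to 5 short motifs. These are the TATA box letters TATAAA, the box of NF-Y factors with the letters CCAAT, the core of the GC box with the letters GGGCGG, a site of AP-1 factors with the letters TGACTCA and a core of TEAD sites with the letters GGAATG. The windows are Spp1 at chr5:104434861-104435110 on the plus strand, Ankrd1 at chr19:36119845-36120094 on the minus strand, Vim at chr2:13574061-13574310 on the plus strand, Krt18 at chr15:102027966-102028215 on the plus strand, Ptf1a at chr2:19445413-19445662 on the plus strand and Krt5 at chr15:101712906-101713155 on the minus strand.
Spp1: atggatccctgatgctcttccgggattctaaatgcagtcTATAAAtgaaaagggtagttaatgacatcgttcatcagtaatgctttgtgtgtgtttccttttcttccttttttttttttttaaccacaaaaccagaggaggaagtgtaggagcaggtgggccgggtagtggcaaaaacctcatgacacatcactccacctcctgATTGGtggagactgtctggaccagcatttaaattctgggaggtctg
Ankrd1: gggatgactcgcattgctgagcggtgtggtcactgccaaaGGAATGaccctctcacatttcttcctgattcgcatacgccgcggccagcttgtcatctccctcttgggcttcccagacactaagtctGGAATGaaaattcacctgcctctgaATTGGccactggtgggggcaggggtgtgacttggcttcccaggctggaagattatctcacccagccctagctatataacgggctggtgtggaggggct
Vim: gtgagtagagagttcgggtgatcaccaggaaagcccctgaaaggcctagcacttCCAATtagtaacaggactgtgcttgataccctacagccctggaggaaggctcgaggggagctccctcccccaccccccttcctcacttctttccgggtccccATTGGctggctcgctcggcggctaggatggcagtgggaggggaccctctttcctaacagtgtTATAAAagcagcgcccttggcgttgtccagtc
Krt18: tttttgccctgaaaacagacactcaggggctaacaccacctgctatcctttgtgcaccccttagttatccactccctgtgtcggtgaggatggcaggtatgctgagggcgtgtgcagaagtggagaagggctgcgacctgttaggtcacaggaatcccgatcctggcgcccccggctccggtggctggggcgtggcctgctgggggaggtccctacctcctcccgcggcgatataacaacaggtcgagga
Ptf1a: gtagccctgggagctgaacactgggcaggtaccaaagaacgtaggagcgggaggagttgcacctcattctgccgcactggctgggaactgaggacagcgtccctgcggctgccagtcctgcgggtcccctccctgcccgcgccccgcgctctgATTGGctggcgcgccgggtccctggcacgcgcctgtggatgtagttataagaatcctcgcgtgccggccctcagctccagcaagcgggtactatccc
Krt5: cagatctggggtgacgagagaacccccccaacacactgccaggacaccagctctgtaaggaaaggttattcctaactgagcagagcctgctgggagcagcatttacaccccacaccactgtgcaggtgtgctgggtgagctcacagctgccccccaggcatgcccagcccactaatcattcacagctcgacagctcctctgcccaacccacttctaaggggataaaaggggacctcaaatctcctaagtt

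The Vim window holds TATAAA beginning 32 bases ahead of the start and CCAAT matches at 94 and 196 bases. The Spp1 window holds a CCAAT match at 46 bases and TATAAA at 211 bases. Ankrd1 holds 2 GGAATG matches, at 123 and 210 bases, and CCAAT at 98 bases. Ptf1a, with no read, holds CCAAT at 97 bases, while Krt18 and Krt5 hold none of the 5 motifs. A second annotated start of Spp1 is not shown. Myc and Ins2 are named only.

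**Figure D1:**
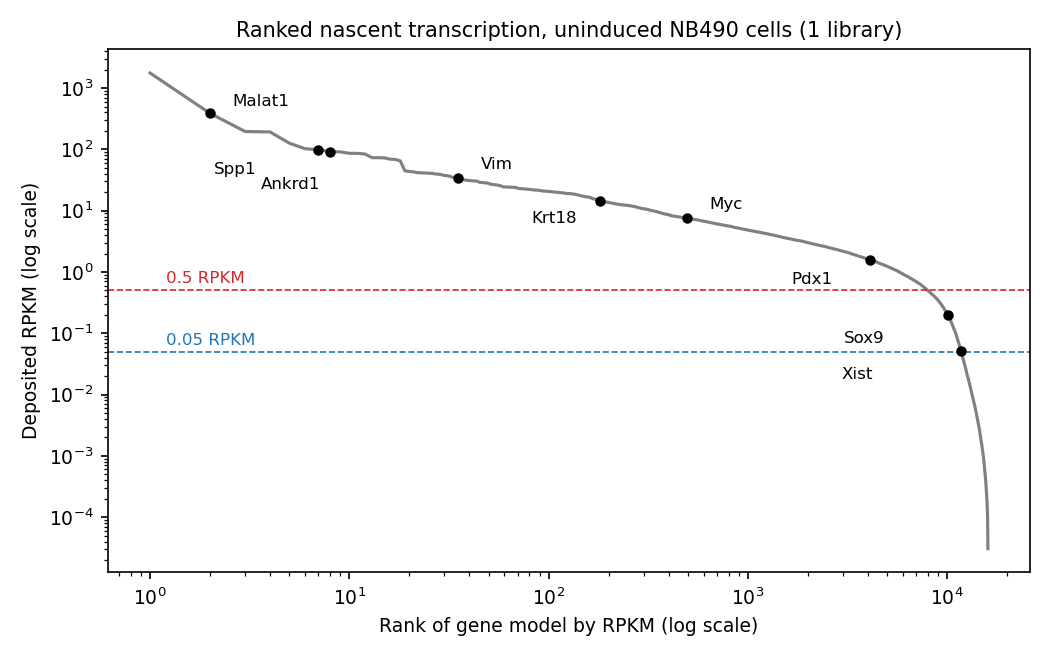
Deposited RPKM (log scale) of each ranked model with reads against its rank (log scale) in the uninduced library; dashed lines mark 0.5 and 0.05 RPKM. Malat1, Spp1, Ankrd1, Vim, Krt18, Myc and Pdx1 lie above the upper line, with Sox9 and Xist (0.0506 RPKM) between the lines.

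The top of the ranking was taken up by nuclear noncoding RNAs and by genes of RNA handling and protein synthesis. Malat1, a long noncoding RNA of nuclear speckles, led the named models at 387 RPKM (385 to 389). Snhg1, a host transcript of small nucleolar RNAs, was at 126 RPKM, and Neat1, the scaffold RNA of paraspeckles, at 102 RPKM (101 to 104). Among the 30 highest named models, 8 encoded ribosomal proteins, from Rpl39 at 193 RPKM to Rps2 at 37.5 RPKM. Of these 8, 6 are part-length; Rpl39 has 394 of 2665 bp and was at 28.5 RPKM over the whole distance, and Rpl30 went from 73.2 to 17.2 RPKM. Among the 30 highest models without part-length ones 4 encoded ribosomal proteins, led by Rps27 at 41.0 RPKM. Ribosomal protein genes have many near-identical processed copies, and how the authors' counting split reads between copies is not given in the sources used here. Another 3 encoded heterogeneous nuclear ribonucleoproteins, which bind new transcripts: Hnrnpa2b1 at 91.1 RPKM, Hnrnpa3 at 69.2 RPKM (part-length, 32.4 RPKM over the whole distance) and Hnrnpu at 36.3 RPKM.

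Several others of the 30 work in translation or splicing. Eef1a1, an elongation factor that brings tRNA to the ribosome, was at 86.3 RPKM, and Eif4a2, an RNA helicase of translation initiation, at 41.4 RPKM. The splicing factor Srsf3 was at 38.6 RPKM, the cyclin Ccnl1, which is tied to splicing, at 41.7 RPKM, and the RNA helicases Ddx5 and Ddx3x, both part-length, at 40.5 and 39.7 RPKM (17.5 and 14 RPKM over the whole distance). Npm1, the nucleolar protein nucleophosmin, was at 44.7 RPKM and Hspa8, a constitutive heat shock chaperone, at 43.6 RPKM. These are genes used by nearly every cell type.

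A smaller set among the 30 has other roles. S100a6, a calcium-binding protein abundant in many pancreatic tumours, was at 86.1 RPKM (84.0 to 88.2). Ier3, an immediate early gene induced by growth factors, was at 42.9 RPKM (41.3 to 44.6). Ptgs2, which encodes cyclooxygenase-2 of prostaglandin synthesis, was at 39.3 RPKM (38.7 to 39.9), and Chka, the choline kinase that opens phosphatidylcholine synthesis, at 37.2 RPKM (36.9 to 37.4). With Spp1 and Ankrd1 these make 6 genes, and the part-length models Vmp1 and Usmg5 are described below.

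Of the 30, 12 were part-length models, whose place depends on that length. The clearest case was Vmp1, an autophagy protein, at 196 RPKM over a deposited 2681 bp and 5.25 RPKM over its full 99958 bp. Usmg5, a small subunit tied to the mitochondrial ATP synthase, was at 41.1 RPKM over 341 bp and 1.96 RPKM over the full distance. With part-length models set aside, 18 of the 30 remained, and Actb (34.9 RPKM), Zfp36l2 (34.7 RPKM) and Vim joined them.

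Reads were spread over many genes. The 10 models with most reads held 1.98% of reads in kept models (exact binomial 95% interval 1.97 to 1.98), the top 100 held 11.4% and the top 1000 held 51.1%. Reaching 50% took 960 models. Malat1 alone held 0.343%.

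Ranked by reads instead of RPKM, the leading genes were long ones. Behind Malat1, with 137700 reads over 6982 bp, came Cd2ap, an adaptor of the actin cytoskeleton, with 91199 reads over 83474 bp. Chka had 80766 reads, and Snd1, a nuclease-domain coactivator, had 79235 reads over 408485 bp. Hmga2, a chromatin protein of embryonic and tumour cells, had 75743 reads over 115541 bp and 12.9 RPKM. Cdh13, an anchored cadherin 1039694 bp long, had 74564 reads yet was at only 1.41 RPKM. The remaining 4 were Qk, an RNA-binding splicing regulator at 12.3 RPKM, Prex2, a Rac exchange factor at 3.92 RPKM, Mecom, a zinc finger oncoprotein at 2.17 RPKM, and Stag1, a cohesin subunit at 3.78 RPKM. Among these 10 only Malat1 and Chka were also among the 30 highest by RPKM.

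Models of 30 to 100 kb gave the largest share of reads of the 7 length classes, 40.4%, from 20.5% of the models and 27% of the summed length. Models of 100 to 300 kb gave 28.5% of reads, close to their 29.1% of the length. Models of 300 kb and over held 28.1% of the length but 8.0% of the reads, and 19.7% of them were transcribed, against 50.1% of those of 30 to 100 kb. At the other end, models under 1 kb made up 10.6% of models and gave 0.162% of reads. In all, the 2153 models of 100 kb or longer, 9.56% of the models, held 36.5% of the reads. Read share thus peaked at middle lengths, and so did the share of models transcribed.

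The highest models of at least 300 kb were Prex2 at 3.92 RPKM (3.89 to 3.95), Snd1 at 3.80 RPKM (3.78 to 3.83) and Stag1 at 3.78 RPKM (3.75 to 3.81). Rere, a nuclear receptor coregulator, followed at 3.26 RPKM. Slc4a4, the bicarbonate cotransporter of duct cells, was at 2.41 RPKM. Among transcribed models the median was lower in this longest class (1.10 RPKM) than in the class of 30 to 100 kb (1.76 RPKM).

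**Figure D2:**
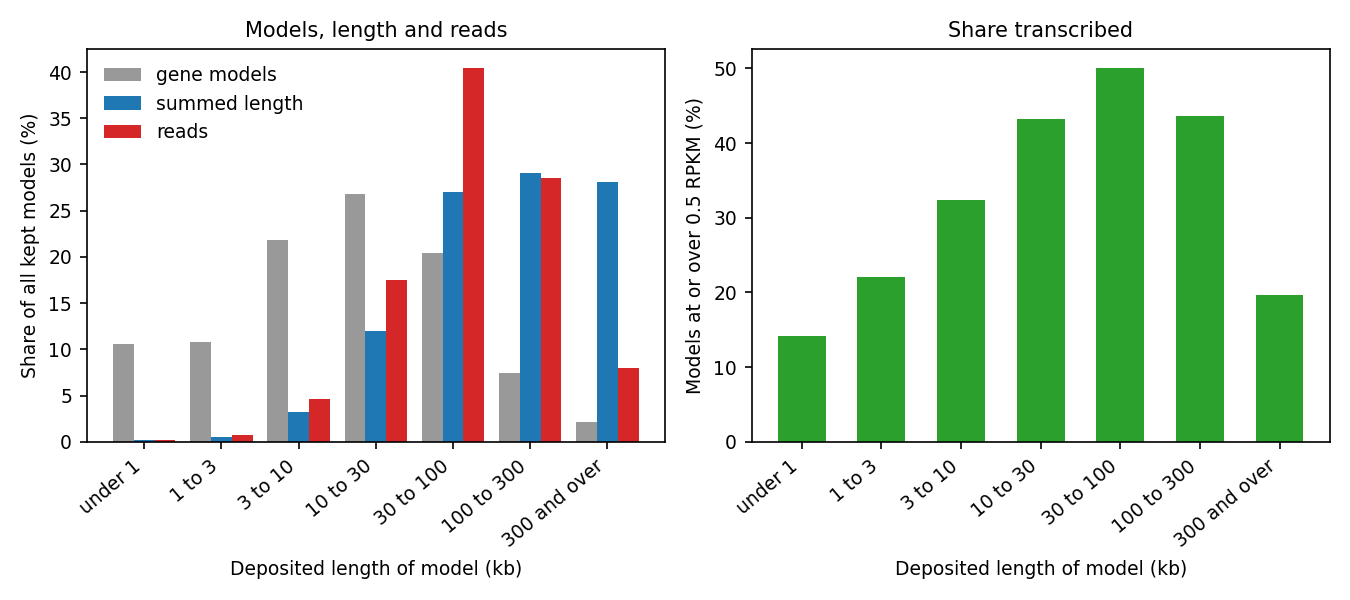
Left, the share (%) of gene models, of summed length and of reads in 7 classes of deposited length (kb); right, the share (%) of each class at or over 0.5 RPKM. Reads peak at 30 to 100 kb with 40.4%, and models of 300 kb and over hold 28.1% of the length and 8.0% of the reads.

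The lineage genes give the line a pancreatic and duct-like set of transcribed regulators with exocrine and endocrine products near zero. Gene lists for lineages, cell types, receptors and cancer genes covered 800 genes, of which 795 had a model that was used. Of these, 260 were transcribed, 125 were low and 410 near zero, so the lists as a whole stood near the shares over all models (36.7% transcribed and 46.1% near zero). The share transcribed differed between lists, which were chosen by theme and with earlier results of these data known.

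Among 24 transcription factors of pancreas and foregut, 15 were transcribed (62.5%, against 36.7% of all ranked models), with a list median of 1.37 RPKM. Pdx1 itself (chromosome 5, 148081707 to 148086725, plus strand) was at 1.59 RPKM on 406 reads (1.44 to 1.75), rank 4107 and close to the median of transcribed models. Klf5, a zinc finger factor of gut and gland epithelia, was highest at 10.8 RPKM (10.5 to 11), followed by the Wnt effector Tcf7l2 at 4.44 RPKM, the Notch effector Hes1 at 3.34 RPKM and the liver and pancreas factor Onecut2 at 3.23 RPKM. Gata6, a zinc finger factor often amplified in pancreatic cancer, was at 2.62 RPKM (2.55 to 2.70).

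Other factors needed early in pancreas formation were at similar levels. Hhex was at 1.72 RPKM, Gata4 at 1.39 RPKM, Foxa2 at 1.36 RPKM (1.21 to 1.53), Hnf4a at 1.15 RPKM and Foxa1 at 0.668 RPKM. Sox9, the factor that marks progenitor and duct cells, was low at 0.198 RPKM on 56 reads (0.149 to 0.257). Onecut1 and Mnx1 had no read.

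Of 35 acinar genes only Gata4 was transcribed, and 24 had no read. Ptf1a and Rbpjl, subunits of the complex that drives digestive enzyme genes, had no read; 3 reads, the limit that a count of 0 allows, would place Ptf1a at 0.0320 RPKM. The highest of 30 enzyme and secretory genes was Cela1, an elastase, at 0.0871 RPKM. The carboxypeptidase gene Cpa1 had no read, which allows up to 0.00958 RPKM.

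Of 31 endocrine genes none was transcribed, against 36.7% of all models. The highest was Pax6, a factor of islet and eye development, at 0.229 RPKM, which a limit of 0.2 RPKM would count. Ins1, Ins2, Gcg and Sst, which encode insulin, glucagon and somatostatin, had no read, nor had the endocrine progenitor factor Neurog3. Pdx1 was thus transcribed in a library where the hormone genes and the beta-cell factors Mafa (0.0182 RPKM) and Nkx6-1 (no read) were near zero.

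Of 31 duct genes 18 were transcribed (58.1%, against 36.7% of all ranked models), with a median of 1.37 RPKM. After Spp1 the highest were Tspan8, a tetraspanin of gut and pancreatic tumours, at 16.3 RPKM (16.1 to 16.5), the simple-epithelium keratins Krt18, Krt19 at 13.6 RPKM (12.8 to 14.5) and Krt7 at 11.2 RPKM (11 to 11.5), the annexin gene Anxa3 at 11.2 RPKM, and the keratin Krt8 at 10.8 RPKM (10.5 to 11.2). The Krt19 model is part-length and was at 3.66 RPKM over the whole distance, below Krt7, Anxa3 and Krt8. Clu, the secreted chaperone clusterin, was at 8.10 RPKM and Muc1, a membrane mucin, at 2.55 RPKM (2.34 to 2.77). Not all duct genes were on: Epcam, an epithelial adhesion molecule, was low at 0.0984 RPKM, the chloride channel gene Cftr was near zero at 0.0129 RPKM, and Mmp7, Lcn2, Pigr and Cldn10 had no read.

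Gastric, intestinal and squamous programs, which some pancreatic cancers take on, were largely near zero. Of 25 gastric and intestinal genes 3 were transcribed: Vsig1 at 1.54 RPKM, a stomach adhesion molecule, Anxa10 at 0.806 RPKM, an annexin of stomach, and Lgals4 at 0.691 RPKM, a gut galectin whose part-length model rests on 19.3 reads and was near zero, at 0.0479 RPKM, over the whole distance. With a limit of 1 RPKM only Vsig1 would count. The gastric mucin gene Muc5ac was at 0.00716 RPKM and the intestinal factor Cdx2 at 0.105 RPKM. Of 28 squamous and basal genes 7 were transcribed, led by the laminin receptor subunit Itga6 at 5.20 RPKM and the cornified envelope gene Sprr1a at 2.28 RPKM, and 3 with a limit of 1 RPKM. Trp63, the defining factor of basal cells, was at 0.00292 RPKM and Krt5 at 0.00337 RPKM on 1 read.

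Epithelial and mesenchymal genes were transcribed side by side, and each list was split within itself. Of 46 epithelial genes 18 were transcribed (39.1%, near the 36.7% of all ranked models), 11 were low and 17 near zero. The junction core was high: the beta-catenin gene Ctnnb1 at 15.7 RPKM (15.5 to 15.9), Ctnnd1 at 9.80 RPKM, the tight junction scaffold Tjp1 at 9.36 RPKM and the E-cadherin gene Cdh1 at 4.81 RPKM (4.74 to 4.89). Of 25 claudins, which seal tight junctions, 3 were transcribed (12%), led by Cldn12 at 4.23 RPKM and Cldn6 at 1.77 RPKM. Cldn3 and Cldn7 had no read.

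Among 17 epithelial regulators and proteases only Spint2, a protease inhibitor, at 3.60 RPKM, and Elf3 and Esrp2, at 0.644 and 0.612 RPKM, were transcribed. Esrp1, the paired splicing regulator of epithelia, was near zero at 0.000358 RPKM, as was Grhl2, a factor that maintains epithelia, at 0.00135 RPKM, and Ovol1 had no read. Thus 15 of 29 junction genes were transcribed, while 10 of 17 regulators and proteases were near zero, against 36.7% and 46.1% of all ranked models.

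Of 37 mesenchymal genes 19 were transcribed (51.4%, against 36.7% of all ranked models), with a median of 0.646 RPKM. Besides Vim, the actin-binding tropomyosin gene Tpm1 was at 13.6 RPKM (13.4 to 13.8), the galectin gene Lgals1 at 10.9 RPKM and the hyaluronan receptor gene Cd44 at 4.44 RPKM. Of 11 transcription factors tied to the epithelial to mesenchymal transition 5 were transcribed: Zeb1 at 1.73 RPKM (1.71 to 1.76), Tcf4 at 1.46 RPKM, Twist2 at 1.41 RPKM (1.36 to 1.46), Snai2 at 1.32 RPKM (1.16 to 1.5) and Twist1 at 0.707 RPKM. Snai1 was low at 0.0727 RPKM. Of 26 structural and matrix genes 14 were transcribed, among them the fibronectin gene Fn1 at 2.51 RPKM and the fibrillar collagen gene Col5a1 at 0.715 RPKM. Others of that group were off: Acta2, Col1a2, Cnn1 and Lox had no read and Col1a1 was at 0.0402 RPKM.

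Markers of cells that could lie among tumour cells were near zero. Of 17 fibroblast and stellate cell markers 16 were near zero, 10 of them with no read, including Pdgfrb, Dcn, Lum, Thy1 and Pdpn; Gsn, the actin-severing protein gelsolin, was the exception at 1.27 RPKM. Of 15 endothelial markers 13 were near zero and the highest was Esam at 0.127 RPKM. The 10 hepatocyte markers included none above 0.410 RPKM (Apob, which a limit of 0.2 RPKM would count), and Alb had no read. Of 12 neural and Schwann markers 10 were near zero and none was transcribed.

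Of 24 immune cell markers 19 were near zero, with Ptprc, the pan-leukocyte CD45 gene, at 0.000174 RPKM on 1 read, and Csf1r, Itgax, Lyz2 and Cd3e at no read. The 2 above 0.5 RPKM were Cd14, the lipopolysaccharide coreceptor, at 1.42 RPKM (1.17 to 1.70), and Cd68, a lysosomal glycoprotein, at 0.994 RPKM (0.795 to 1.23). Cd68 lies 874 bp downstream of Eif4a1, at 12.8 RPKM on the same strand, and the part that reads running on from Eif4a1 have in its level was not tested. The summed RPKM of the immune list was 2.77, of which these 2 genes made up most. With a limit of 1 RPKM only Cd14 would count.

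Among 16 transcription factors of other tissues, 2 were at or over 0.5 RPKM. Pax2, a factor of kidney and the urogenital tract, was at 2.8 RPKM on 11513 reads (2.75 to 2.86). Nanog, the pluripotency factor, was at 1.92 RPKM on 80.4 reads over a part-length model of 821 of 6211 bp, and over the full distance its value was 0.254 RPKM. Its partner Pou5f1 was low at 0.0661 RPKM and Sox2 near zero at 0.0160 RPKM. The muscle factors Myod1, Myf5 and Myog and the B-cell factor Pax5 had no read.

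**Figure D3:**
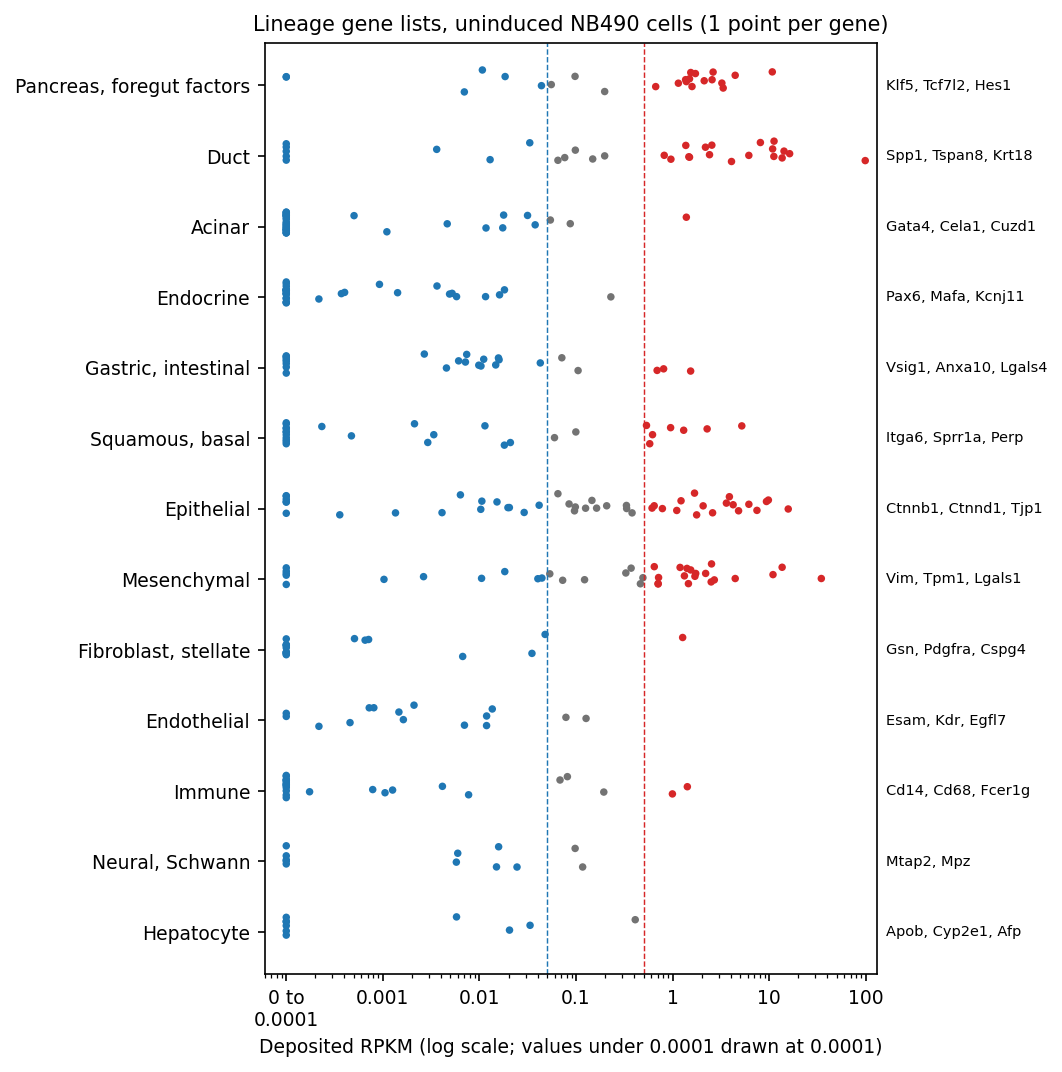
Each point is 1 gene of a lineage or cell type list at its deposited RPKM (log scale, values under 0.0001 drawn at 0.0001) in the uninduced library; colours and dashed lines mark the limits of 0.05 and 0.5 RPKM, and up to 3 of the highest genes of each list are named at the right. Points over 0.5 RPKM are 15 of 24 for pancreas and foregut factors and 18 of 31 for duct genes, against 1 of 35 for acinar and 0 of 31 for endocrine genes. They are 19 of 37 for mesenchymal genes, and over all ranked models the share is 36.7%.

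Cancer genes of the pancreas were nearly all transcribed. Of 17 oncogenes 14 were, with a median of 2.62 RPKM. The cyclin D1 gene Ccnd1 was at 11.3 RPKM (11 to 11.6). The Hippo pathway coactivators Yap1 and Wwtr1 were at 4.24 and 3.47 RPKM, and Mdm2, the p53 ligase, at 3.80 RPKM. Of the Myc family Mycn and Mycl1 were near zero, at 0.0171 and 0.0154 RPKM, and Erbb2 was low at 0.433 RPKM.

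All 30 tumour suppressor genes were transcribed, from 0.681 RPKM for Rnf43 to 11.1 RPKM for Usp9x, a deubiquitinase whose part-length model was at 1.3 RPKM over the whole distance. Of oncogenes and suppressors together 44 of 47 were transcribed, and 41 by reads over the whole distance. Cdkn2a, the gene of p16 and p19ARF and often deleted in pancreatic cancer, was at 6.89 RPKM (6.73 to 7.06). Its neighbours Cdkn2b, at 3.64 RPKM, and Mtap, at 3.13 RPKM, were transcribed too. Smad4, the shared TGF-beta effector, was at 2.99 RPKM (2.93 to 3.05) and Trp53 at 1.84 RPKM (1.73 to 1.95). Transcription of a gene says nothing of point mutations in it, and a deletion smaller than the model would not be visible in a total over that model.

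Over all ranked models 36.7% were transcribed and 46.1% near zero, the shares to set beside each receptor and ligand list below. Of 54 receptor tyrosine kinases, the membrane receptors of most growth factors, 11 were transcribed (20.4%), 13 low and 30 near zero. A limit of 0.2 RPKM would count 17. Epha2, an ephrin receptor common in carcinomas, was highest at 4.25 RPKM (4.14 to 4.35), followed by Epha4 at 3.64 RPKM, the hepatocyte growth factor receptor Met at 2.92 RPKM (2.87 to 2.96) and Axl, the GAS6 receptor, at 2.53 RPKM (2.45 to 2.61). The Wnt-binding receptor Ryk was at 2.48 RPKM, and the insulin-like receptors Igf1r and Insr at 2.09 RPKM (2.06 to 2.11) and 1.75 RPKM (1.71 to 1.78).

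In the EGF receptor family Egfr was just above the limit at 0.590 RPKM (0.574 to 0.607), Erbb2 and Erbb3 were low, at 0.433 and 0.0954 RPKM, and Erbb4 was near zero. None of the 4 FGF receptors reached 0.5 RPKM, Fgfr1 being highest at 0.361 RPKM (0.339 to 0.383). None of the 8 receptors of the PDGF and VEGF families did either, the highest being Kdr at 0.0786 RPKM.

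Of 11 ligands of the EGF family 5 were transcribed, each higher per length than any receptor gene of that family: Hbegf at 6.60 RPKM (6.39 to 6.82), Nrg1 at 5.75 RPKM (5.68 to 5.81), Areg at 4.54 RPKM, Ereg at 2.64 RPKM and Tgfa at 0.744 RPKM, while Egf itself was low at 0.0981 RPKM. Nrg1 binds ERBB3 and ERBB4, whose genes were low and near zero. Of 28 ligands of other receptor tyrosine kinases 10 were transcribed, among them the neurotrophin Bdnf at 3.49 RPKM (3.42 to 3.56) and the macrophage growth factor Csf1 at 2.76 RPKM.

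For several of these ligands a receptor gene was low or near zero in the same library. Ntrk2, the receptor gene for BDNF, was at 0.00194 RPKM, and Csf1r had no read. Vegfa, the main angiogenic factor, was at 2.11 RPKM with Kdr, among its receptors, at 0.0786 RPKM, and Pdgfb was at 1.61 RPKM with Pdgfrb at no read. The reverse held for Met, whose ligand gene Hgf was at 0.000893 RPKM. Of 14 Eph receptors 4 were transcribed and 7 near zero, and of their ligands, the ephrins, 5 of 8 were transcribed. Efnb2 at 7.89 RPKM and Efna5 at 3.45 RPKM led the ephrins and were the only 2 at or over 1 RPKM.

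Of 14 TGF-beta superfamily receptors 8 were transcribed, with a median of 0.758 RPKM. Tgfbr2, the receptor that binds TGF-beta first, was at 4.34 RPKM (4.28 to 4.4) and its partner Tgfbr1 at 1.74 RPKM, and the BMP receptors Bmpr1a and Bmpr2 were at 2.87 and 2.39 RPKM. In the Notch pathway, Notch2 was the only transcribed receptor of 4 at 1.71 RPKM (1.68 to 1.74), Notch1 was low at 0.250 RPKM, and Jag1 was the only transcribed ligand of 5 at 2.20 RPKM (2.13 to 2.27).

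Of 17 Wnt receptors and receptor regulators 9 were transcribed, among them the coreceptor Lrp6 at 3.36 RPKM and the Frizzled genes Fzd6 at 3.35 RPKM and Fzd5 at 3.19 RPKM. Of 19 Wnt ligands 2 were, Wnt7a at 1.27 RPKM and Wnt7b at 0.971 RPKM. Of these 36 Wnt pathway genes together 11 were transcribed (30.6%), 17 with a limit of 0.2 RPKM and 7 with a limit of 1 RPKM. None of the 3 Hedgehog ligands was transcribed and Shh, which many pancreatic cancers make, had no read. Gli3 at 1.67 RPKM, Smo at 1.38 RPKM, Sufu at 1.25 RPKM and Ptch1 at 0.825 RPKM were transcribed, while Gli1, a target that reads out active signalling, was at 0.00168 RPKM and Gli2 had no read.

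Of 37 cytokine and death receptors 12 were transcribed (32.4%, near the 36.7% of all ranked models), and 20 with a limit of 0.2 RPKM. Tnfrsf12a, the receptor of TWEAK, was at 6.07 RPKM, the interferon gamma receptor Ifngr1 at 4.29 RPKM and Tnfrsf21 at 3.00 RPKM. Of 18 chemokine receptors only Cxcr7, a scavenger of CXCL12, at 2.78 RPKM (2.65 to 2.91) and Cxcr2, the receptor of neutrophil chemokines, at 1.10 RPKM (0.993 to 1.21) were transcribed, and Cxcr4 was near zero at 0.0382 RPKM. Tlr4, which senses lipopolysaccharide together with CD14, was the only one of 12 Toll-like receptors above 0.5 RPKM, at 0.855 RPKM (0.790 to 0.923); a limit of 0.2 RPKM would give 3 and a limit of 1 RPKM 0.

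Of 31 receptors for lipids, proteases and related ligands 7 were transcribed, and 4 with a limit of 1 RPKM, led by the thrombin receptor F2r at 3.55 RPKM (3.42 to 3.68) and the trypsin receptor F2rl1 at 2.88 RPKM (2.76 to 3.01). The lysophosphatidic acid receptors Lpar6 and Lpar1 followed at 2.17 and 1.49 RPKM. Ptgs2, which stood among the 30 highest models, makes the precursor of prostaglandin E2, and of the receptors of that lipid Ptger4 and Ptger1 were low, at 0.0808 and 0.0566 RPKM, Ptger3 was near zero and Ptger2 had no read.

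Of 49 nuclear receptors 16 were transcribed (32.7%, near the 36.7% of all ranked models). Nr1h5, a farnesoid X receptor relative, was highest at 4.34 RPKM (4.22 to 4.45), followed by Nr2c2 at 3.56 RPKM and the lipid sensor Pparg at 2.64 RPKM (2.60 to 2.68). Of 6 steroid receptors the glucocorticoid receptor Nr3c1 was at 2.34 RPKM (2.29 to 2.38) and the mineralocorticoid receptor Nr3c2 at 0.611 RPKM, while Esr1, Esr2 and Pgr were near zero. Vdr, the vitamin D receptor, was near zero at 0.00510 RPKM.

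Of 26 integrins, the receptors for matrix, 8 were transcribed (30.8%, near the 36.7% of all ranked models). Itgb1, the beta subunit that pairs with most alpha subunits, was at 11.8 RPKM (11.7 to 12.0), and its partners Itga6, Itga3 and Itga2 were at 5.20, 3.41 and 2.49 RPKM. Itga3 is part-length and was at 0.514 RPKM over the whole distance. Itgav, which pairs with several beta subunits, was at 4.08 RPKM. Itgb4, which joins ITGA6 in hemidesmosomes, was low at 0.0995 RPKM (0.0852 to 0.116). Of 21 axon guidance receptors 7 were transcribed (33.3%), led by the netrin receptor Neo1 at 3.31 RPKM, with Robo1 and Robo2 near zero.

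**Figure D4:**
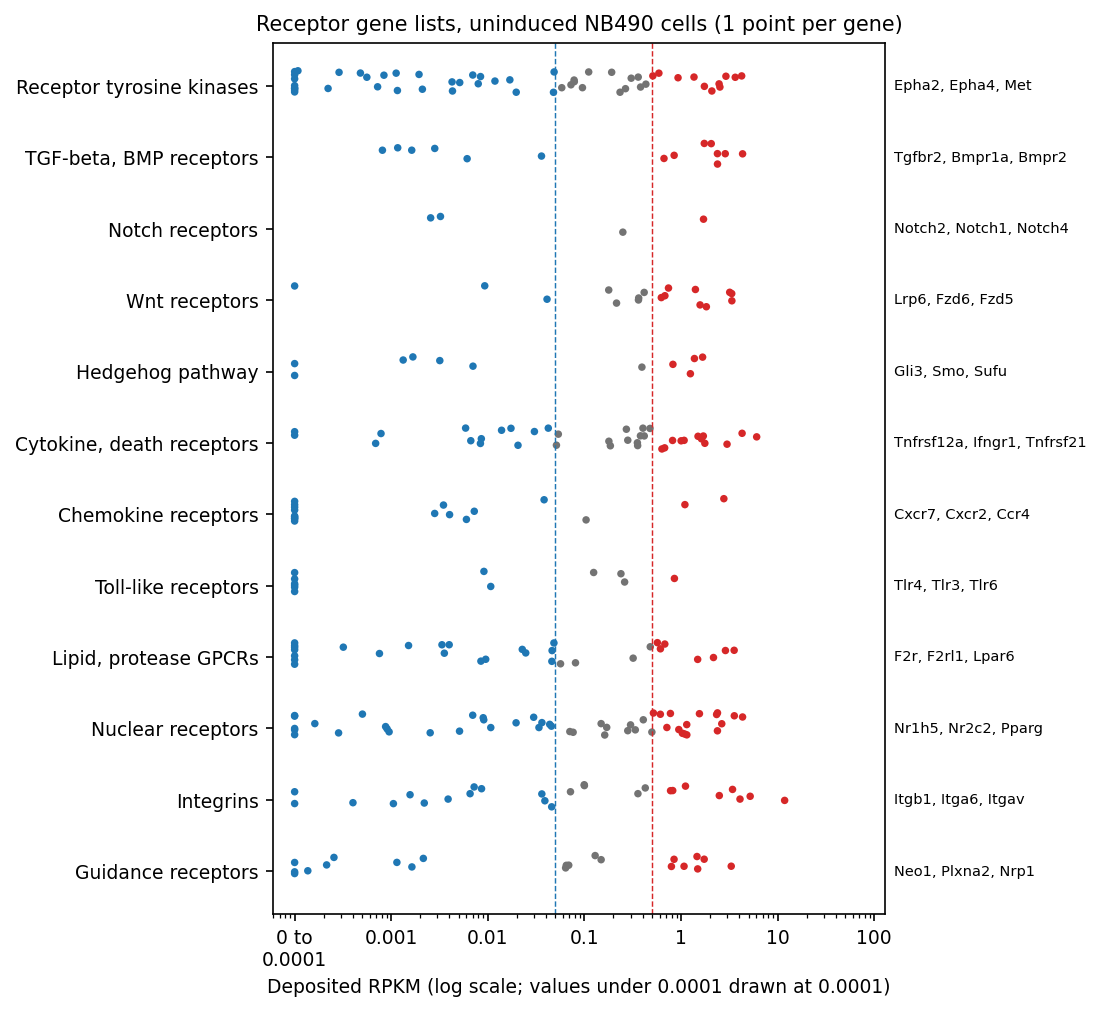
Each point is 1 receptor or pathway gene at its deposited RPKM (log scale, values under 0.0001 drawn at 0.0001) in the uninduced library, with the limits of 0.05 and 0.5 RPKM as dashed lines and up to 3 of the highest genes of each list named at the right. Integrins and receptors of the TGF-beta superfamily reach 11.8 and 4.34 RPKM, and 15 of 18 chemokine receptors lie under 0.05 RPKM.

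Genes of antigen display were weakly transcribed. B2m, the light chain of class I molecules, was at 2.70 RPKM (2.51 to 2.90), but the heavy chain gene H2-K1 was low at 0.372 RPKM (0.296 to 0.462) and H2-D1, a part-length model, was at 0.622 RPKM (0.512 to 0.749) and at 0.495 RPKM over the whole distance. Class I genes are near-identical to one another, so reads may be split or shared between them. The peptide transporter genes Tap1 and Tap2 were near zero at 0.00405 and 0.0215 RPKM, and the immunoproteasome genes Psmb8 and Psmb9 had no read. Among 15 checkpoint and adhesion ligands, Pvr was at 2.95 RPKM, Cd47, the signal that restrains phagocytes, at 2.21 RPKM and the PD-L1 gene Cd274 low at 0.213 RPKM (0.186 to 0.242). Over both groups 8 of 29 genes were transcribed (27.6%, against 36.7% of all ranked models), and 4 with a limit of 1 RPKM.

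The share of members transcribed differed between gene families. Over all ranked models 36.7% were transcribed and 46.1% near zero. Of 39 Hox genes, which set position along the body axis, 6 were transcribed (15.4%). All 6 lay in the Hoxb cluster on chromosome 11. They were Hoxb5 at 1.39 RPKM (1.2 to 1.60), Hoxb6 at 1.14 RPKM (0.956 to 1.34), Hoxb3 at 1.02 RPKM (0.967 to 1.08), Hoxb9 at 0.890 RPKM (0.781 to 1.01), Hoxb4 at 0.854 RPKM (0.721 to 1.00) and Hoxb8 at 0.541 RPKM (0.437 to 0.662). Hoxb7, inside that stretch, was low at 0.390 RPKM (0.304 to 0.493), Hoxb1 and Hoxb13 at the ends of the cluster were near zero, and the highest Hox gene elsewhere was Hoxa10 at 0.154 RPKM (0.122 to 0.193). The intervals of Hoxb5 and Hoxb6 overlap, as do those of Hoxb6 and Hoxb3 and those of Hoxb3, Hoxb4 and Hoxb9, so these neighbours have no settled order. Hoxb3 lies 1488 bp downstream of Hoxb4 on the same strand, and Hoxb5 lies 1943 bp downstream of Hoxb6. The part that reads running on from an upstream neighbour have in the Hoxb levels was not tested.

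**Figure D5:**
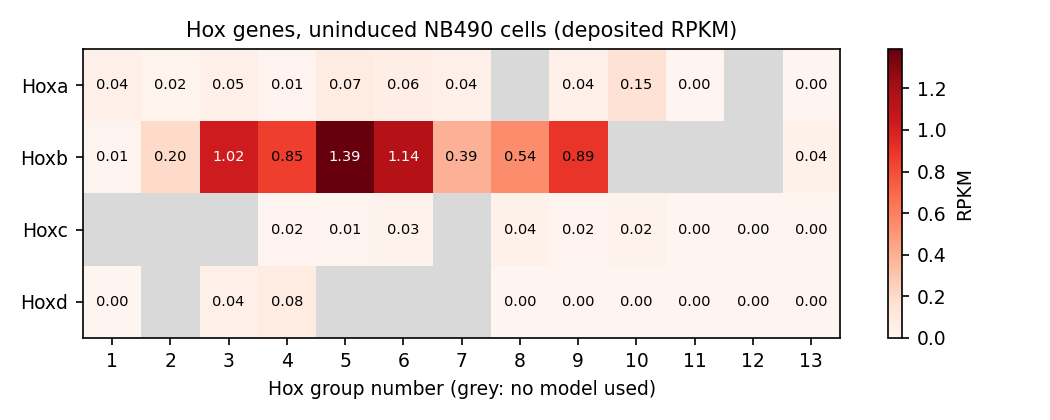
Deposited RPKM of the Hox genes by cluster (rows) and group number (columns) in the uninduced library, with grey cells where no model was used. Hoxb3 to Hoxb9 hold all values above 0.5 RPKM, and outside the Hoxb cluster the highest is Hoxa10 at 0.154 RPKM.

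Of 51 keratins 5 were transcribed (9.80%) and 35 had no read. The 5 were the simple keratins Krt18, Krt19, Krt7 and Krt8 and, lower, Krt80 at 0.993 RPKM. Of 9 mucins only Muc1 was transcribed. Of 43 collagens 6 were, led by the basement membrane gene Col4a1 at 2.26 RPKM. At the far end, 1077 of 1080 olfactory receptor models (99.7%) were near zero and 1059 had no read. The exception above 0.5 RPKM was Olfr613 at 20.0 RPKM (19.4 to 20.5) on 5228 reads. Olfr608, the next model upstream on its strand, had no read but lies 79377 bp away. Where the Olfr613 reads come from was not tested. Of 92 ribosomal protein genes 83 were transcribed (90.2%), with a median of 13.1 RPKM. Of 364 zinc finger genes with Zfp names 231 were transcribed (63.5%).

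Long noncoding RNAs and the sex chromosomes complete the picture of the line. Of 14 listed long noncoding RNAs 10 were transcribed, with Gas5, a small nucleolar RNA host, at 31.4 RPKM and Mir17hg, the host of the miR-17 to miR-92 cluster, at 14.5 RPKM. Pvt1, the neighbour of Myc, was at 3.26 RPKM. The imprinted RNAs H19 and Meg3 were near zero, at 0.00775 and 0.00449 RPKM, whereas Kcnq1ot1, also imprinted, was at 4.62 RPKM.

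Of 8 Y-linked genes, Eif2s3y at 1.29 RPKM (1.22 to 1.37), Ddx3y at 0.811 RPKM (0.764 to 0.861) and Uty at 0.555 RPKM (0.539 to 0.572) were transcribed, and Kdm5d was low at 0.463 RPKM (0.436 to 0.491). Only Eif2s3y was over 1 RPKM. Xist, the RNA that silences an X chromosome in female cells, was low at 0.0506 RPKM on 59 reads (0.0385 to 0.0653). Sry, which acts in the embryonic testis, had no read. Across the autosomes the share of models transcribed ran from 27.6% on chromosome 7 to 44.7% on chromosome 19, and on X it was 32.6%.

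The promoters of transcribed genes differed in composition from those of silent ones, a property that the ranking did not use. A single 250-base RefSeq window was available for 12787 ranked models. The median ratio of CG pairs observed over expected was 0.793 for transcribed genes, 0.661 for low and 0.233 for near zero genes, and the median GC content was 60.8%, 59.6% and 48.8%. GGGCGG, the core of the GC box bound by SP factors, was present on either strand in 65.2% of windows of transcribed genes, 57.1% of low and 23.3% of near zero ones, and in 43.9% of all windows.

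TATAAA ran the other way, in 5.81% of windows of transcribed genes and 19.7% of near zero ones, against 12.7% of all windows. Among genes at or over 10 RPKM the share was 10.8% of 212 windows. CCAAT was in 38.8% of transcribed, 34.7% of near zero and 36.5% of all windows. TGACTCA was in 2.62% of transcribed, 5.30% of near zero and 4.06% of all windows, but in 5.19% of those of genes at or over 10 RPKM. GGAATG was in 10.0%, 13% and 11.7%, and in 8.49% at or over 10 RPKM. GGGCGG and the CG ratio both follow base composition, and the motif shares were not adjusted for it. A match is a description of letters and does not show that a factor binds there.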

How the data were processed

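The deposited table gives, per the file headers, 3 values for each gene model of the uninduced Bru-seq library: estimated counts of reads, RPKM, and a signal of reads per base. Tools listed in the submitters' processing notes are Bowtie 0.12.8 and TopHat 1.4.1, which align reads, with bedtools 2.16.2 and CASAVA 1.8.2, and no settings are given. The genome they list is human (hg19) although the symbols are mouse, so the build of the coordinates is not given in the sources used here and coordinates are printed as deposited. The protocol makes reads strand-specific in only some samples, without naming them; where genes overlap on opposite strands, their reads cannot be told apart here. Of the deposited estimated counts above 0, 47.3% were whole (within 0.01), so some reads were counted in fractions. Models had introns and exons together, which gives long genes many reads. RPKM as deposited by the authors was the measure. The deposited signal was not needed.

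Of 22658 models, 138 were set aside (133 with a repeated symbol, 11 spanning over 3 Mb, some both), holding 0.582% of gene model reads, and 745 under 300 bp were not ranked. Levels carry exact Poisson and shares exact binomial 95% intervals (scipy 1.17.1), which cover counting error only, since reads carried no molecular identifiers. The Poisson intervals were tested only on whole counts simulated from a Poisson distribution around the deposited counts. That simulation holds no fractional counts, so it cannot show how the intervals fare on them. The members and lists were chosen with earlier results of these data known. The genes named are the 5 markers, the 30 highest models with a gene name, the 10 with most reads, the 5 highest under 300 bp, and in each list up to 4 of the highest and its first members; the others were chosen after their values were seen. Gene symbols were matched to RefSeq (GRCm38.p6), and 15244 of 21775 ranked models had a promoter window. Alternatives changed the RPKM limit, the length used, the models kept and the overlap rule. A few genes covered by this rule are not reported here.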

Additional observations from a re-analysis of the deposited data

Results flagged for a closer look

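Models shorter than 300 bp, mostly small RNAs, were outside the ranking. Of these 745, 221 were at or over 0.5 RPKM, against 7981 of 21775 ranked models (36.7%). At such lengths the limit that a count of 0 allows can exceed 0.5 RPKM, so some of the 221 may rest on few reads. This limit was 0.726, 0.865 and 0.905 RPKM for Mir1894, Snord2 and Snord47. It was lower for Snord22 and Rmrp, at 0.467 and 0.214 RPKM. The 5 highest models, which include these, lay far above their limits. Snord22, a small nucleolar RNA within Snhg1, was at 184 RPKM (173 to 195) on 1181 reads. Mir1894, a microRNA, was at 44.4 RPKM, Snord2, which lies within Eif4a2, at 39.3 RPKM, Snord47 at 37.1 RPKM, and Rmrp, the RNA of a mitochondrial and nucleolar ribonuclease, at 36.0 RPKM. Reads in a small RNA inside a host gene can come from the host's own transcript, and their part in these values was not tested. All 745 held 0.0171% of the reads, and 426 had no read.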

How the results depend on the processing

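The count of 7981 transcribed models ranged from 5753 with a limit of 1 RPKM to 10060 with a limit of 0.2 RPKM, and was 7714 with reads over the whole distance. It was 7545 without part-length models, an alternative chosen after seeing the data. Of the list genes, 195 were transcribed at 1 RPKM and 312 at 0.2 RPKM. The share of reads in the 10 models with most reads was 2.03% without models overlapping on the same strand and 2.05% with repeated symbols and models over 3 Mb kept, against 1.98%. The share in models of 100 kb or longer was 36.7% by start to end distance, 36.9% with repeated symbols and models over 3 Mb kept, 36.0% without overlapping models and 36.9% without part-length models, against 36.5%. GGGCGG was in 66.6% of windows of genes at or over 2 RPKM, against 65.2%. By reads over the distance Spp1 ranked 5, Ankrd1 86, Vim 23, Krt18 162 and Myc 443. With a limit of 0.2 RPKM, 6 of 34 list counts moved by more than 1.5 times, and with 1 RPKM 9 did. Depth limits short models most: 3 reads in Ins2 are 0.0559 RPKM, above the near zero limit, so its class rests on that length. No paired analysis was possible because there is 1 library. No replicate could be left out, and variation between cultures is unknown.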

Other observations

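The highest of all ranked models was Gm20594, a predicted gene of 334 bp on chromosome 6, at 1761 RPKM (1741 to 1781) on 29995 reads. Another model with a clone name, 2610203C20Rik on chromosome 9, was at 83.9 RPKM (83.1 to 84.6) over 11072 bp.

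Some of the silent genes lay in runs. There were 281 runs of at least 4 neighbouring models with no read, holding 2782 of the 5785 ranked models with no read. The longest held 192 models on chromosome 2, from Olfr1034 to Olfr1274-ps, nearly all of them olfactory receptors. Around Cdkn2a, the interferon genes Ifna1 and Ifna4 had no read, and on its other side Dmrta1 was near zero at 0.0239 RPKM.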
